A study of Mus musculus with 9 samples.

Results

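Livers taken after the higher of 2 doses of retrorsine, 50 mg/kg, were compared directly with livers taken after 25 mg/kg, over all genes and without the saline controls. The study's series holds 9 libraries of poly(A) RNA from wild-type mouse liver, of which the 6 from retrorsine-treated mice, 3 at each dose, entered the comparison. All were collected 2 h after intraperitoneal injection. The groups were retrorsine 50 mg/kg, retrorsine 25 mg/kg and, given only as context, NaCl. Each group has 3 repetitions by its labels, with no word on whether these are different mice, and the p-values accordingly measure only the spread between samples, which may be technical in part. Libraries of the same dose differed by far more than counting noise, with a mean chi-square per gene of 44.1 to 111 over the pairs. Age and sex were not used here.

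Retrorsine is a pyrrolizidine alkaloid, a plant toxin that liver cytochrome P450 enzymes oxidise to reactive pyrroles, which bind glutathione and protein. Hepatocytes and the endothelial cells lining the sinusoids are the known targets of this class of toxin. Cells answer reactive compounds through NRF2, which drives glutathione and detoxification genes, through the integrated stress response with the transcription factors ATF4, CHOP and ATF3, and through the AP-1 immediate early genes. The liver also makes fatty acids from glucose and fructose, a pathway that the transcription factors SREBP-1c and ChREBP turn on in the fed state.

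The deposited read counts summed to between 15571060 and 16530687 per library at 50 mg/kg and between 15241261 and 17516579 at 25 mg/kg. Of 21936 genes in the table, 12189 passed the filter on low counts. Levels are CPM, counts relative to library sizes that were scaled by the trimmed mean of M values (TMM), and fold changes are 50 over 25 mg/kg, so a positive log2 value means higher at 50 mg/kg. Unless another tool is named, p-values come from edgeR's quasi-likelihood F test, adjusted by Benjamini-Hochberg over all genes tested, with a threshold of 0.05. The libraries expressed hepatocyte genes throughout: the summed level of 26 hepatocyte markers was 188684, 192665 and 190918 CPM at 50 mg/kg, against 177131, 212745 and 183975 CPM at 25 mg/kg. Libraries of 50 mg/kg stood apart from each other in several ways. Replicate 3 carried 263 CPM of neutrophil and monocyte markers, against 20.9 and 16.9 CPM in replicates 1 and 2 and 8.70 to 22.1 CPM at 25 mg/kg. Replicate 2 carried 457 CPM of pancreatic acinar transcripts, against 12.1 and 27.5 CPM in replicates 1 and 3 and 11.9 to 19.7 CPM at 25 mg/kg. The common dispersion, edgeR's measure of squared relative spread between replicates, was 0.118 within 50 mg/kg and 0.0636 within 25 mg/kg.

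No gene differed between the doses at an adjusted p under 0.05 in edgeR (0 of 12189, 0%). The smallest adjusted p was 0.143, for Acacb. At an unadjusted p under 0.05 there were 882 genes (7.24%), of which 506 (4.15%) were higher and 376 (3.08%) lower at 50 mg/kg. This split depended on the scaling: with library totals alone it was 383 higher and 535 lower, and limma-voom gave 376 and 406 with 0 genes past the adjusted threshold. DESeq2's Wald test, on the same counts, called 84 of 11457 genes with an adjusted p (0.733%), 61 higher (0.532%) and 23 lower (0.201%). All CPM values at 50 mg/kg lay above all those at 25 mg/kg for 656 genes (5.38%) and below them for 737 (6.05%), and 75 of the 84 DESeq2 genes were among these. An exact permutation test of 3 libraries against 3 cannot go below a two-sided p of 0.1, so no single gene can pass on its own ranks. In what follows, a gene is said to stand higher or lower where the libraries of the doses did not overlap, and DESeq2 values are given by name.

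**Figure D1:**
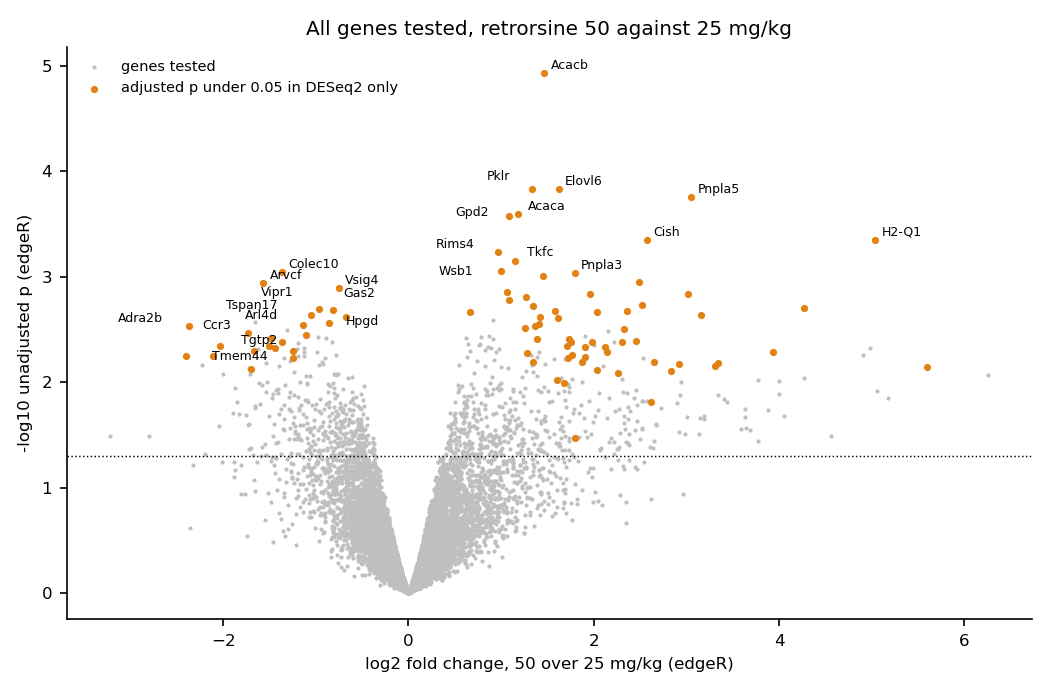
Each point is a gene, with the log2 fold change of 50 over 25 mg/kg on the x axis and the −log10 of the unadjusted edgeR p-value on the y axis, and a dotted line at the threshold of 0.05. Orange points are the 84 genes past the adjusted threshold of 0.05 in DESeq2 (edgeR called 0), and the labelled genes are the 12 higher and 12 lower ones of lowest p that the naming rule took; Acacb stands furthest from the rest.

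Among the lists with at least 8 tested members, fatty acid synthesis had the largest share of genes that stood higher at 50 mg/kg with all 6 libraries in. Of 20 genes in a list of fatty acid and triglyceride synthesis, all of them tested, 10 (50.0%) stood higher without overlap and 0 lower, against 5.38% and 6.05% of all genes. The median log2 fold change of the list was 0.84, against -0.01 over all genes tested. At an unadjusted p under 0.05, 13 of the 20 were higher and 1 lower, against 4.15% and 3.08% of all genes. The adjusted p passed for none of them in edgeR and for 5, all higher, in DESeq2, which called 0.532% of all genes higher. The mean log2 CPM of the list, centred per gene on the 6 libraries, was 0.30, 0.39 and 0.34 at 50 mg/kg, against -0.31, -0.33 and -0.39 at 25 mg/kg. The 3 libraries of each dose thus sat close together on this list, including replicates 2 and 3 of 50 mg/kg with their acinar and neutrophil transcripts. Over other scalings and the omission of single libraries, 9 to 13 of the 20 stood higher and 0 or 1 lower. Of all genes, 3.26% stood higher with library totals, where 9 of the 20 did, and 12.7% without 50 mg/kg replicate 1, where 13 did. Over these settings 5.92% to 16.1% of all genes stood lower. The list did not always have the largest share. Without 50 mg/kg replicate 1, 81.0% of the AP-1 genes stood higher against 65.0% of the fatty acid genes and 12.7% of all genes. When the third library of 25 mg/kg was dropped, the shares were 61.9%, 60.0% and 9.66%. With the first library of 25 mg/kg dropped the cytokine list had 75.9% against 55.0% of the fatty acid genes and 12.2% of all genes. With the second of 50 mg/kg dropped acute phase genes had 79.2% and cytokines 55.2%, against 55.0% of the fatty acid genes and 11.1% of all genes. On the centred scale the NaCl libraries were at 0.07, -0.01 and 0.03.

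Acacb (ENSMUSG00000042010, GRCm38 chromosome 5, 114146535 to 114250761), the mitochondrial acetyl-CoA carboxylase whose malonyl-CoA restrains fatty acid oxidation, had the lowest p of all genes. It measured 326, 336 and 369 CPM at 50 mg/kg, against 121, 118 and 134 CPM at 25 mg/kg. The groups were far apart relative to their spread, with 343 ± 22.6 CPM at 50 mg/kg and 124 ± 8.42 CPM at 25 mg/kg (SD, n = 3 each), a log2 fold change of 1.47 (SE 0.15) and an adjusted p of 0.143 in edgeR and 1.47e-12 in DESeq2. In the NaCl libraries it was at 373, 444 and 482 CPM, so that 25 mg/kg was the low group. Acaca (ENSMUSG00000020532, GRCm38 chromosome 11, 84129672 to 84401651), the cytosolic carboxylase that makes malonyl-CoA for fatty acid synthesis, measured 104, 131 and 105 CPM at 50 mg/kg, against 48.4, 58.5 and 42.7 CPM at 25 mg/kg. The log2 fold change of Acaca was 1.18 (SE 0.19), with an adjusted p of 0.536 in edgeR and 0.000154 in DESeq2. Both doses were below NaCl for this gene, at 249, 194 and 240.0 CPM.

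Elovl6, the elongase that turns palmitate into stearate, measured 242, 374 and 243 CPM at 50 mg/kg, against 85.1, 79.95 and 114 CPM at 25 mg/kg. It had a log2 fold change of 1.62 (SE 0.24), the adjusted p 0.536 in edgeR and 3.52e-06 in DESeq2, and the NaCl libraries, at 340.3, 237 and 294 CPM, lay within the range of 50 mg/kg except for the lowest of them. Pnpla3, a lipid droplet protein known as a target of SREBP-1c, measured 82.4, 71.4 and 118 CPM at 50 mg/kg, against 40.01, 16.5 and 21.9 CPM at 25 mg/kg (log2 fold change 1.79, SE 0.35, adjusted p 0.646 in edgeR and 0.000894 in DESeq2). Here 50 mg/kg lay above the NaCl libraries too, which were at 45.6, 34 and 24.1 CPM. Acly, which makes cytosolic acetyl-CoA from citrate, measured 1416, 1476 and 1285 CPM at 50 mg/kg, against 828, 916 and 883 CPM at 25 mg/kg, with a log2 fold change of 0.67 (SE 0.15) and a DESeq2 adjusted p of 0.0146. Its log2 fold change was the smallest of the 5 that DESeq2 called in this list.

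The other 5 members that stood higher passed in neither tool. Fasn, fatty acid synthase, measured 3363, 4649 and 3078 CPM at 50 mg/kg, against 1737, 504 and 1793 CPM at 25 mg/kg, and 1 library at 25 mg/kg was far below the other 2. Its log2 fold change was 1.46 (SE 0.44), with an adjusted p of 0.656 (edgeR). Dgat2, which adds the last acyl chain of triglycerides, measured 606, 664 and 1098 CPM at 50 mg/kg, against 427, 365 and 439 CPM at 25 mg/kg, and Gpam, which starts glycerolipid synthesis, 656, 1022 and 1114 CPM at 50 mg/kg, against 522, 549 and 466 CPM at 25 mg/kg. Me1, a source of NADPH, measured 71.3, 89.9 and 54.6 CPM at 50 mg/kg, against 49.2, 45.1 and 27.7 CPM at 25 mg/kg, and Scd1, the stearoyl-CoA desaturase, 10691, 5535 and 5236 CPM at 50 mg/kg, against 4106, 4937 and 3296 CPM at 25 mg/kg. For Scd1 both doses were above NaCl, at 1593, 1733 and 2316 CPM, so the group order was not shared across the list. Lpin1, Thrsp and Insig1 were also higher at an unadjusted p under 0.05 but with overlapping libraries, at log2 fold changes of 1.00, 0.90 and 0.85.

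The genes that encode the 2 best known activators of the pathway did not stand apart. Mlxipl, which encodes ChREBP, measured 312, 392 and 381 CPM at 50 mg/kg, against 419, 331 and 288 CPM at 25 mg/kg, with a log2 fold change of 0.06 (SE 0.19). Srebf1, which encodes SREBP-1, measured 1547, 1050.3 and 987 CPM at 50 mg/kg, against 1211, 1624 and 616 CPM at 25 mg/kg, with a log2 fold change of 0.05 (SE 0.35). In both genes the libraries of the doses overlapped, and the direction of these small differences turned when single libraries were left out. The desaturases Fads1 and Fads2 were at -0.01 (SE 0.23) and -0.07 (SE 0.18), the elongase Elovl5 at -0.23 (SE 0.25) and the acyltransferase Dgat1 at 0.15 (SE 0.18). Insig2, which retains SREBP in the endoplasmic reticulum, was the only member lower at an unadjusted p under 0.05, at 478, 243 and 403 CPM at 50 mg/kg, against 645, 914 and 409 CPM at 25 mg/kg. Its libraries overlapped, and its log2 fold change was -0.81 (SE 0.34) with an adjusted p of 0.673 (edgeR). Of 24 genes of cholesterol synthesis, the neighbouring pathway under SREBP-2, 2 stood higher (8.33%, against 5.38% of all genes) and 0 lower. Their median log2 fold change was -0.04. Dropping 25 mg/kg replicate 3 put 6 of them higher (25.0%, against 9.66% of all genes), with a median of 0.27. Dropping the first 25 mg/kg library put 4 lower (16.7%, against 12.1% of all genes), and dropping the second 50 mg/kg library put 3 lower (12.5%, against 11.6%), both near the share of all genes.

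**Figure D2:**
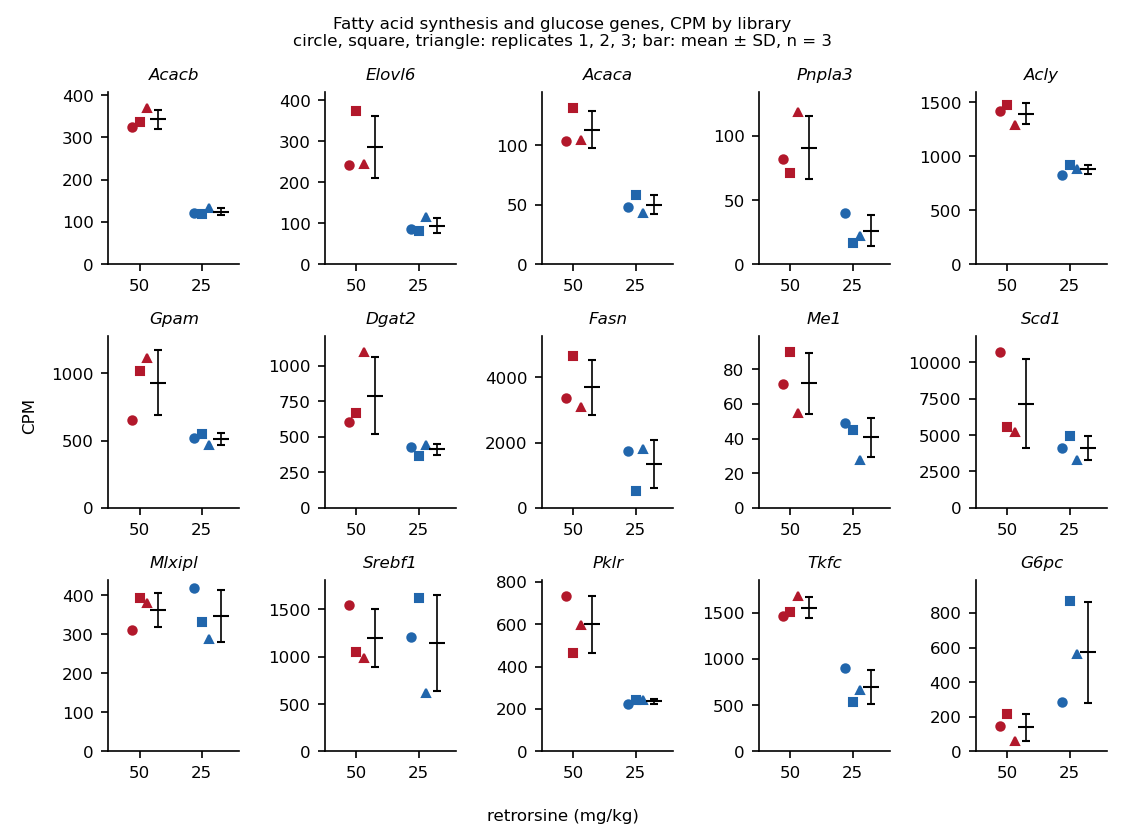
Each panel shows 1 gene in CPM on a linear axis from 0, with the 3 libraries of 50 mg/kg left and of 25 mg/kg right; the bar beside the points is the mean ± SD (n = 3). Acacb, Elovl6, Acaca, Pklr and Tkfc, named for low p without overlap, separate the doses by more than their spread. Mlxipl and Srebf1 do not, and G6pc has the opposite order.

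Promoter sequences were set beside these values because many members stood higher together. The windows are RefSeq's, on the build GRCm38.p6, from 250 bases before to 50 bases after an annotated transcript start, printed 5′ to 3′ on the strand of the gene. Of the 20 listed genes, 16 had a window. The CCAAT box (CCAAT or its complement ATTGG, searched on both strands) was found in 11 of these 16 (68.8%), against 38.6% of the 9738 tested genes with a window. The E-box CACGTG was found in 3 of 16 (18.8%), against 10.1%. Other motifs were searched too. The cAMP response element TGACGTCA and the C/EBP-ATF motif TGATGNAA were each in 2 of 16 (12.5%), against 3.08% and 2.29%. AP-1, antioxidant response, TATA and heat shock motifs were in 6.25%, 31.2%, 6.25% and 6.25%, against 5.11%, 42.7%, 7.67% and 5.76%. The 16 include members whose libraries overlapped. Over all genes that stood higher at 50 mg/kg, the CCAAT box was in 37.9% of 531 windows, and over those that stood lower in 37.2% of 583. A match shows only that these letters are present. Shown are Acacb, the gene of lowest p, and Fasn and Acly, central enzymes of the list, with the CCAAT box and, in Acacb, the TATA box (TATAAA) in capitals. The Acacb window lies 18983 bases inside the start of the gene as deposited.
Acacb, chr5:114165268-114165567, plus strand: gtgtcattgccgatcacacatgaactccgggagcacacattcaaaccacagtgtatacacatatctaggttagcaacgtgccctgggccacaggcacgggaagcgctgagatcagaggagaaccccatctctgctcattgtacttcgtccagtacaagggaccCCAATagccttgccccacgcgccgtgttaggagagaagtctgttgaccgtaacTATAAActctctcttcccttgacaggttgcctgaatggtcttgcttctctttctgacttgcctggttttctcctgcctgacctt
Fasn, chr11:120824498-120824797, minus strand: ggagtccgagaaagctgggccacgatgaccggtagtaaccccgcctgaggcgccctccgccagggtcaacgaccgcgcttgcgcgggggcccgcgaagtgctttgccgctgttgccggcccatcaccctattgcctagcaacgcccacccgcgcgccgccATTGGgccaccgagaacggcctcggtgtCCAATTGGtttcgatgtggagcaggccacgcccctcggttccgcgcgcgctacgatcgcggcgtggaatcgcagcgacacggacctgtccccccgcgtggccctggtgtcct
Acly, chr11:100527951-100528250, minus strand: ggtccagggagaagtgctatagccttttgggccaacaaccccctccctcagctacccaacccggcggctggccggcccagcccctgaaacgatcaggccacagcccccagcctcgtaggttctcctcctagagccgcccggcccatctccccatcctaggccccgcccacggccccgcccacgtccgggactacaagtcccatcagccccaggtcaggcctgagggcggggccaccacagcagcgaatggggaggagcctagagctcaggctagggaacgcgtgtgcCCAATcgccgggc
In Fasn the window holds 3 matches, of which 2 overlap on opposite strands. In Acly the only match lies downstream of the transcript start.

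Some genes of glucose and fructose use were also among those of lowest p on the higher side, and 2 lists cover part of this area. Of 18 tested genes of hypoxia and glycolysis 2 stood higher (11.1%, against 5.38% of all genes) and 0 lower. Of 20 genes of gluconeogenesis and glucose handling 4 stood higher (20%, against 5.38% of all genes) and 2 lower (10%, against 6.05% of all genes). At an unadjusted p under 0.05, 7 of these 20 were higher and 1 lower, against 4.15% and 3.08% of all genes. Log2 fold changes were positive for 11 of the 20 and negative for 9. Pklr, the liver pyruvate kinase and a known ChREBP target, measured 732, 465 and 597 CPM at 50 mg/kg, against 223, 243 and 244 CPM at 25 mg/kg. It differed by a log2 fold change of 1.34 (SE 0.20), with an adjusted p of 0.536 in edgeR and 7.86e-06 in DESeq2; the NaCl libraries were at 338, 584 and 486 CPM. Tkfc, triokinase of fructose breakdown, measured 1467, 1511 and 1680.1 CPM at 50 mg/kg, against 900.1, 536 and 664 CPM at 25 mg/kg (log2 fold change 1.15, SE 0.22, DESeq2 adjusted p 0.00248). Gpd2, the mitochondrial glycerol-3-phosphate dehydrogenase, measured 30.8, 32 and 30.1 CPM at 50 mg/kg, against 12.7, 14.2 and 16.9 CPM at 25 mg/kg (log2 fold change 1.09, SE 0.18, DESeq2 adjusted p 0.000794). Pklr, Tkfc and Gpd2 were taken from the genes without overlap, so the separation of their libraries was set by that choice. Further genes of hexose use were picked after their values were seen. Khk, ketohexokinase, measured 1314, 1242 and 1371 CPM at 50 mg/kg, against 983, 821 and 729 CPM at 25 mg/kg, and Gpi1, glucose-6-phosphate isomerase, 658, 755 and 699.9 CPM at 50 mg/kg, against 474, 417 and 485 CPM at 25 mg/kg. Neither overlapped, at log2 fold changes of 0.63 and 0.62, but they passed in neither tool. Mid1ip1, which helps acetyl-CoA carboxylase to polymerise, was also picked so and measured 33.7, 63.8 and 36.5 CPM at 50 mg/kg, against 13.3, 9.82 and 21.6 CPM at 25 mg/kg (log2 fold change 1.58, SE 0.36, DESeq2 adjusted p 0.00812).

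Glucose release showed the opposite order in its last enzyme. G6pc, the catalytic subunit of glucose-6-phosphatase, measured 144, 216 and 60.8 CPM at 50 mg/kg, against 288, 869.7 and 563 CPM at 25 mg/kg. The doses did not overlap although each spread widely, with a log2 fold change of -2.03 (SE 0.52), an adjusted p of 0.646 in edgeR and 0.00812 in DESeq2. The NaCl libraries were at 23, 72.3 and 66.1 CPM, so 25 mg/kg was the high group. In its list the higher genes were Pklr, Fbp1, Pygl and Pfkfb1, and the lower ones G6pc and Ppargc1a. Fbp1, fructose-1,6-bisphosphatase of gluconeogenesis, was at a log2 fold change of 0.50 (SE 0.18), and Pygl, liver glycogen phosphorylase, at 0.48 (SE 0.17). Pck1, the other rate-setting enzyme of gluconeogenesis, overlapped between the doses, at 362, 884 and 1191 CPM at 50 mg/kg, against 529, 2226 and 519 CPM at 25 mg/kg. When 50 mg/kg replicate 1 was dropped, 7 of the 20 stood higher (35.0%, against 12.7% of all genes) and 4 lower (20%, against 16.1%).

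Immediate early genes of the AP-1 family and its neighbours were mostly higher at 50 mg/kg, with 2 of the 3 libraries far above the third. Of 24 listed, 21 passed the filter. Of these, 8 stood higher without overlap (38.1%, against 5.38% of all genes) and 1, Klf2, lower (4.76%, against 6.05%). The median log2 fold change was 1.25, and 15 of 21 were higher at an unadjusted p under 0.05 (4.15% of all genes were). DESeq2 called 5 of them higher, namely Ier3, Myc, Maff, Jun and Ier2, against 0.532% of all genes. The centred mean of the list was -0.28, 0.82 and 1.14 in replicates 1, 2 and 3 of 50 mg/kg, against -0.52, -0.88 and -0.28 at 25 mg/kg. Replicate 1 of 50 mg/kg thus sat at the level of the highest 25 mg/kg library. Without it 17 of the 21 did not overlap (12.7% of all genes were higher then), dropping the third 25 mg/kg library gave 13 (9.66% of all genes), and scaling by library totals 6 (3.26% of all genes).

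Jun, the core AP-1 subunit, measured 152, 563 and 618 CPM at 50 mg/kg, against 103, 85.2 and 176 CPM at 25 mg/kg, so its lowest value at 50 mg/kg lay within the range at 25 mg/kg. Its log2 fold change was 1.87 (SE 0.51), with a DESeq2 adjusted p of 0.0177. Myc, the growth-related transcription factor, measured 41.3, 76.5 and 76.8 CPM at 50 mg/kg, against 22.1, 23.5 and 36 CPM at 25 mg/kg. It did not overlap (log2 fold change 1.25, SE 0.30, adjusted p 0.646 in edgeR and 0.0246 in DESeq2), and the NaCl libraries were lower than both doses at 11, 11.9 and 4.46 CPM. Ier5, a heat shock factor cofactor, measured 55.8, 64.2 and 56.5 CPM at 50 mg/kg, against 30.8, 29.6 and 42.4 CPM at 25 mg/kg, with a log2 fold change of 0.78 (SE 0.19). Jund, Fosl2 and Klf10 also stood higher, at 0.92, 1.27 and 0.99. Fos, a partner of Jun in AP-1, measured 6.37, 12.2 and 20.8 CPM at 50 mg/kg, against 7.26, 4.28 and 7.15 CPM at 25 mg/kg. Egr1, a zinc finger factor of the same early response, measured 9.92, 64.9 and 101 CPM at 50 mg/kg, against 7.26, 8.96 and 18 CPM at 25 mg/kg. For both the libraries of the doses overlapped. The NaCl libraries spread just as widely for Egr1, at 171, 15.6 and 83.7 CPM, with replicate 1 above every treated library.

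Atf3 (ENSMUSG00000026628, GRCm38 chromosome 1, 191170296 to 191218039), the stress-induced transcription factor named in the study's title, measured 191, 522 and 485 CPM at 50 mg/kg, against 190.5, 142 and 181 CPM at 25 mg/kg. Replicate 1 of 50 mg/kg was level with the highest 25 mg/kg library, and the other 2 were far above it. The means were 399.6 ± 182 CPM at 50 mg/kg and 171 ± 25.7 CPM at 25 mg/kg (SD, n = 3 each), with a log2 fold change of 1.22 (SE 0.36) and an adjusted p of 0.656 in edgeR. DESeq2 did not call it either. Both doses were above NaCl, at 42.7, 7.02 and 12.6 CPM. In the ATF4 and CHOP list, 4 of 23 tested genes stood higher and 1 lower, with a median log2 fold change of 0.34. The shares were 17.4% and 4.35%, against 5.38% and 6.05% of all genes. Ppp1r15a, which encodes GADD34 and restarts translation, measured 54.4, 89.5 and 104 CPM at 50 mg/kg, against 38.1, 33.9 and 52.2 CPM at 25 mg/kg (log2 fold change 1.00, SE 0.28), and Mthfd2 and Nupr1 stood higher at low levels. Nupr1, a stress-induced chromatin protein, was the list's DESeq2 call (adjusted p 0.026), at 10.6, 3.28 and 3.71 CPM at 50 mg/kg, against 1.41, 1.38 and 1.67 CPM at 25 mg/kg.

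Most other named genes of this response overlapped between the doses. Atf4 itself was at a log2 fold change of 0.32 (SE 0.20) and Ddit3, which encodes CHOP, at 1.17 (SE 0.43) with overlapping libraries. Trib3, a pseudokinase induced by both, measured 36.7, 53.8 and 25.1 CPM at 50 mg/kg, against 34.3, 46.7 and 39.8 CPM at 25 mg/kg. Its log2 fold change was -0.06 (SE 0.28), although both doses lay far above NaCl at 4.62, 4.39 and 3.51 CPM. Gdf15, a stress hormone, was at 1.00 (SE 0.43) and the glutathione-degrading enzyme Chac1 at 1.07 (SE 0.78), both with overlap. Cars, a cysteinyl-tRNA synthetase, stood lower at -0.47 (SE 0.17). The count of 4 (17.4%, against 5.38% of all genes) was 7 (30.4%) when either 25 mg/kg replicate 2 or 50 mg/kg replicate 1 was dropped, against 8.36% and 12.7% of all genes. It was 8 (34.8%, against 9.08%) without 50 mg/kg replicate 3 and 1 (4.35%, against 3.26%) with library totals.

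NRF2 targets and glutathione genes split, with a set of inducible members lower at 50 than at 25 mg/kg. Of 31 listed, 28 were tested. Of these, 7 stood lower (Srxn1, Gclc, Ugdh, Gsta1, Gsta2, Gstm3 and Abcc2) and 2 higher (Me1 and Pgd). The shares were 25% lower and 7.14% higher, against 6.05% and 5.38% of all genes. The list's median was -0.07. At an unadjusted p under 0.05, 8 of the 28 were lower and 1 higher, against 3.08% and 4.15% of all genes. Srxn1 (ENSMUSG00000032802, GRCm38 chromosome 2, 152105516 to 152111376), which repairs oxidised peroxiredoxins, measured 679.6, 399.8 and 371 CPM at 50 mg/kg, against 876, 752 and 797 CPM at 25 mg/kg. The groups were separate, with 484 ± 170.3 CPM at 50 mg/kg and 808 ± 63.1 CPM at 25 mg/kg (SD, n = 3 each), a log2 fold change of -0.74 (SE 0.25) and an adjusted p of 0.656 (edgeR). NaCl livers held 46.5, 45.2 and 51.2 CPM, so both doses were many times above control and the higher dose less so.

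Gclc, the catalytic subunit for glutathione synthesis, measured 496, 425 and 333 CPM at 50 mg/kg, against 739.6, 925 and 529 CPM at 25 mg/kg, with a log2 fold change of -0.81 (SE 0.25). Ugdh, which makes UDP-glucuronate for conjugation, measured 72.8, 79 and 53.9 CPM at 50 mg/kg, against 125, 141 and 100.3 CPM at 25 mg/kg, with a log2 fold change of -0.83 (SE 0.21). Gsta2, a glutathione transferase, measured 13.9, 26.3 and 13.1 CPM at 50 mg/kg, against 33.8, 63.3 and 39.8 CPM at 25 mg/kg and was the only member of the list that DESeq2 called (log2 fold change -1.36, SE 0.34, DESeq2 adjusted p 0.0308). Reads of Gsta1 and Gsta2, which resemble each other closely, could have been split between them, and both values are uncertain. In these genes all libraries at 50 mg/kg lay below all at 25 mg/kg, while NaCl was lower still for Ugdh at 46.2, 32.3 and 49.9 CPM. Other targets of the same factor overlapped. Txnrd1, thioredoxin reductase, was at 0.08 (SE 0.20), Gclm, the modifier subunit for glutathione synthesis, at -0.30 (SE 0.22), and Nqo1 at -0.44 (SE 0.33). Nfe2l2, which encodes NRF2, was at -0.07 (SE 0.23) and its inhibitor Keap1 at 0.02 (SE 0.18). Without 25 mg/kg replicate 3, 11 of the 28 stood lower (39.3%, against 10.7% of all genes). When 25 mg/kg replicate 1 was dropped, 5 stood higher (17.9%, against 12.2% of all genes).

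The Srxn1 window is shown because AP-1 and NRF2 sites overlap in sequence and genes of both groups stood apart here. The AP-1 motif TGANTCA, searched on both strands and in capitals, was found in 5.11% of the windows of tested genes.
Srxn1, chr2:152105274-152105573, plus strand: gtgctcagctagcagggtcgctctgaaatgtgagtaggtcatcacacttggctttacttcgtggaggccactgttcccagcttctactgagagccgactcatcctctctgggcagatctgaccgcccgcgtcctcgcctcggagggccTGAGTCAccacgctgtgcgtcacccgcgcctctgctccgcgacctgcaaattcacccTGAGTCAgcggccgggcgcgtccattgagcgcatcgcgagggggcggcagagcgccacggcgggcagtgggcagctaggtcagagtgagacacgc
The AP-1 motif occurs at 2 places in this window. Among the 17 immediate early genes with a window, 0 held it.

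**Figure D3:**
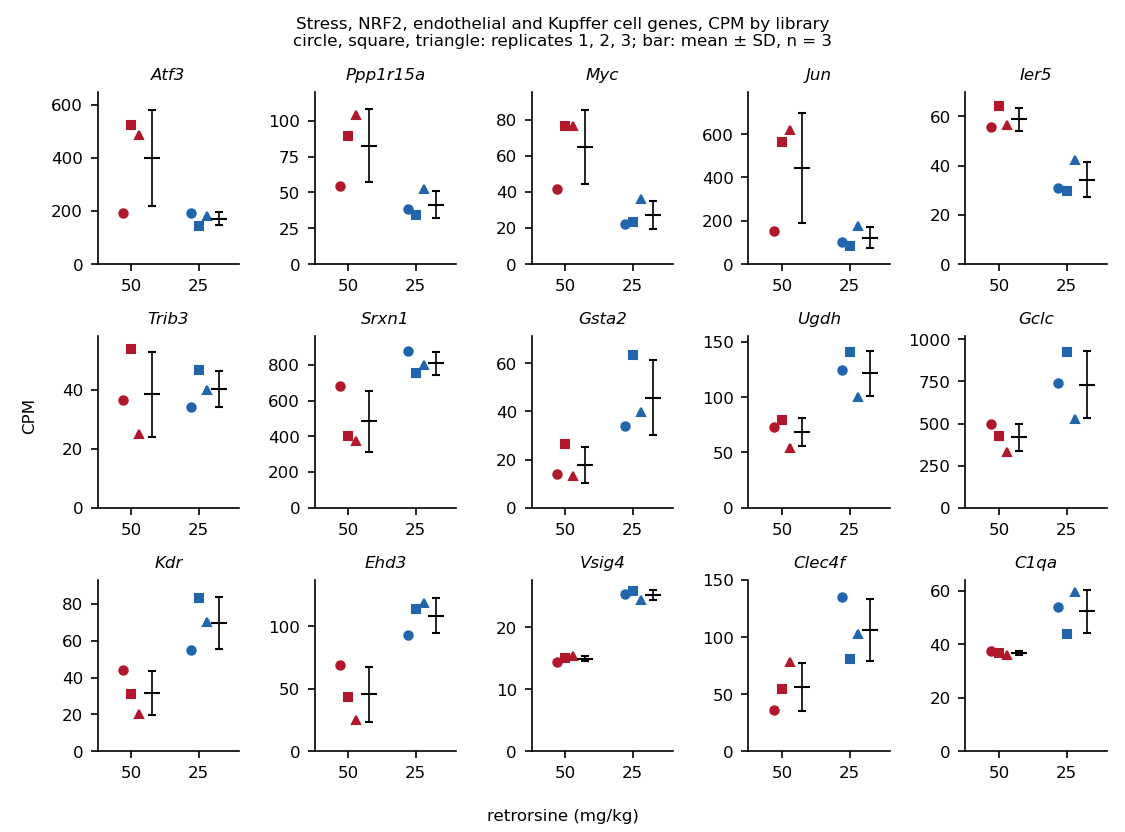
Panels show CPM per library for 15 genes on linear axes from 0, 50 mg/kg left and 25 mg/kg right, with the mean ± SD (n = 3) as a bar. Atf3 and Jun have replicate 1 of 50 mg/kg near the 25 mg/kg libraries and replicates 2 and 3 far above, Trib3 overlaps, and Srxn1, Gclc, Ugdh, Kdr, Ehd3 and Vsig4 lie lower at 50 mg/kg in every library.

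Genes of ferroptosis control, an iron-dependent death by lipid peroxidation that the study's title names, gave 4 higher and 1 lower of 32 tested. The shares were 12.5% higher and 3.12% lower, against 5.38% and 6.05% of all genes. Their median log2 fold change was 0.01. The 4 became 7 (21.9%) without 25 mg/kg replicate 1 or 50 mg/kg replicate 1, when 12.2% and 12.7% of all genes were higher, and 2 (6.25%, against 3.26% of all genes) with library totals. Tfrc, the transferrin receptor that imports iron, measured 63.7, 148 and 116 CPM at 50 mg/kg, against 25.9, 49.9 and 53 CPM at 25 mg/kg. It was the list's DESeq2 call (log2 fold change 1.35, SE 0.37, DESeq2 adjusted p 0.0481; edgeR 0.646), and the NaCl libraries were at 60.2, 80.01 and 82.2 CPM. Fth1, the ferritin heavy chain, and Sat1, a polyamine acetyltransferase, also stood higher, at 0.35 and 0.47. Gpx4, the peroxidase that opposes this death, measured 188, 275 and 263 CPM at 50 mg/kg, against 259.7, 191 and 202 CPM at 25 mg/kg (log2 fold change 0.15, SE 0.21), and Acsl4, which makes the vulnerable lipids, 33.9, 40.3 and 35.4 CPM at 50 mg/kg, against 25.3, 39.8 and 38.3 CPM at 25 mg/kg (log2 fold change 0.08, SE 0.21). Both overlapped. Hmox1, heme oxygenase, measured 42.5, 50.2 and 307 CPM at 50 mg/kg, against 73.9, 58.7 and 44.2 CPM at 25 mg/kg, with 1 library far above the others. Slc7a11, the cystine importer, and Ptgs2 were too low to test.

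Of 26 p53 targets, 3 stood higher (11.5%, against 5.38% of all genes) and 1 lower (3.85%, against 6.05%). Their median log2 fold change was 0.35. Dropping the first library of 50 mg/kg raised the 3 to 9 (34.6%, against 12.7% of all genes), and dropping the third of 25 mg/kg raised it to 8 (30.8%, against 9.66%). Dropping the first or the second of 25 mg/kg gave 5 (19.2%), against 12.2% and 8.36% of all genes. Plk3, a stress-responsive polo-like kinase, measured 562, 606 and 1194 CPM at 50 mg/kg, against 342, 506 and 521 CPM at 25 mg/kg, and Cdkn1a, the cell cycle inhibitor p21, 177, 292 and 222 CPM at 50 mg/kg, against 132, 125 and 187 CPM at 25 mg/kg with overlap. Gadd45a, a stress sensor, was called by DESeq2 alone (adjusted p 0.0082) on values of 1.92, 13.8 and 27.6 CPM at 50 mg/kg, against 1.63, 1.52 and 2.53 CPM at 25 mg/kg. As with Jun, its replicate 1 at 50 mg/kg was at the level of 25 mg/kg. Cyp3a11, the main Cyp3a enzyme of mouse liver, measured 2195, 3129 and 3298 CPM at 50 mg/kg, against 3722, 3625 and 3352 CPM at 25 mg/kg (log2 fold change -0.31, SE 0.19). Of 30 xenobiotic P450 and phase II enzymes, 0 stood higher and 5 lower (16.7%, against 6.05% of all genes). Their median log2 fold change was -0.25. Leaving out 50 mg/kg replicate 2 raised the 5 to 13 (43.3%, against 11.6% of all genes), leaving out 25 mg/kg replicate 1 to 9 (30.0%, against 12.1%) and leaving out 50 mg/kg replicate 3 to 8 (26.7%, against 9%).

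Inflammatory genes had the largest median of the lists with at least 8 tested members, and replicate 3 of 50 mg/kg was far above the other libraries. Of 29 cytokine, chemokine and NF-kB feedback genes tested, 28 had a positive log2 fold change, with a median of 2.34. Without overlap, 6 stood higher (20.7%, against 5.38% of all genes). The list's centred mean was 0.19, -0.17 and 2.61 at 50 mg/kg, against -0.22, -1.48 and -0.93 at 25 mg/kg. Without that library the median was 0.83, with 24 of 29 positive and 6 still without overlap (20.7%, against 9.08% of all genes). Cxcl10, an interferon-induced chemokine, measured 30.1, 7.09 and 887 CPM at 50 mg/kg, against 11.3, 3.03 and 11.2 CPM at 25 mg/kg, and Icam1, an adhesion molecule, 181, 79.2 and 1615 CPM at 50 mg/kg, against 80.9, 21.9 and 34.1 CPM at 25 mg/kg. In both the third library exceeded the others many times over. NaCl replicate 1 was also high for both, with 648, 59.3 and 75.1 CPM over the NaCl libraries for Icam1. Birc3, an NF-kB target that inhibits cell death signalling, did not overlap, at 34.7, 29.4 and 235 CPM at 50 mg/kg, against 24.3, 14 and 17.1 CPM at 25 mg/kg. Ccl2, a monocyte attractant, was the list's DESeq2 call (adjusted p 0.0105) on overlapping values of 12.9, 4.51 and 38.6 CPM at 50 mg/kg, against 4.78, 1.32 and 1.72 CPM at 25 mg/kg. The number without overlap was 22 when 25 mg/kg replicate 1 was left out (75.9%, against 12.2% of all genes), 16 when 50 mg/kg replicate 2 was (55.2%, against 11.1%) and 10 when 50 mg/kg replicate 1 was (34.5%, against 12.7%).

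All 24 acute phase genes had a positive log2 fold change, with a median of 0.99, yet 1 of 24 was without overlap. That was 4.17%, against 5.38% of all genes. Their centred mean was 0.89, -0.93 and 1.93 at 50 mg/kg, against -0.03, -0.83 and -1.03 at 25 mg/kg. Replicate 2 of 50 mg/kg was thus as low as the 25 mg/kg libraries, and without it 19 of 24 did not overlap (79.2%, against 11.1% of all genes). Without 25 mg/kg replicate 1 the number was 5 (20.8%, against 12.2% of all genes). Without 50 mg/kg replicate 1 it was 2 (8.33%), below the 12.7% of all genes. Replicate 3 was the highest both here and for the neutrophil markers, whose part in these values was not tested.

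**Figure D4:**
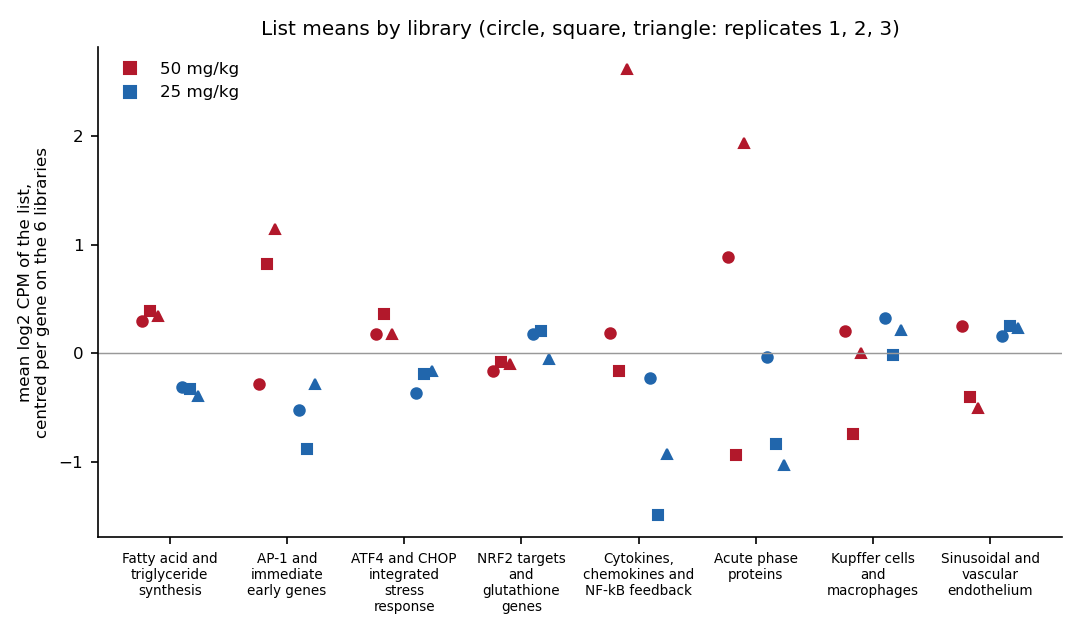
The y axis gives the mean log2 CPM of a list, each gene centred on its mean over the 6 libraries, for 8 lists, with 50 mg/kg left (red) and 25 mg/kg right (blue) in each. Fatty acid synthesis separates the doses with little spread, whereas in the cytokine list replicate 3 of 50 mg/kg lies far above the rest and in the acute phase list replicate 2 of 50 mg/kg lies among the 25 mg/kg libraries.

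Markers of liver sinusoidal endothelium and of Kupffer cells, the resident macrophages, were lower at 50 mg/kg in part. Of 20 endothelial markers, 7 stood lower (35%, against 6.05% of all genes) and 0 higher. Their median log2 fold change was -0.46. At an unadjusted p under 0.05, 6 were lower and 1 higher (3.08% and 4.15% of all genes were). The centred mean of the endothelial list was 0.25, -0.40 and -0.50 at 50 mg/kg, against 0.16, 0.25 and 0.23 at 25 mg/kg, so that replicate 1 of 50 mg/kg was as high as the 25 mg/kg libraries. Of 15 Kupffer cell and macrophage markers, 4 stood lower (26.7%, against 6.05% of all genes) and 0 higher, with a median of -0.38. In bulk tissue, fewer cells of a type and less RNA per cell cannot be told apart. Ehd3, an endocytic protein of sinusoidal endothelium, measured 68.7, 43.2 and 25.2 CPM at 50 mg/kg, against 93, 114 and 119 CPM at 25 mg/kg and was called by DESeq2 (log2 fold change -1.25, SE 0.34, DESeq2 adjusted p 0.0483; edgeR 0.646). Kdr, the VEGF receptor 2, measured 43.9, 31 and 20.3 CPM at 50 mg/kg, against 55, 83.1 and 70.05 CPM at 25 mg/kg (log2 fold change -1.13, SE 0.30), and Gpr182, an endothelial receptor, 41.5, 26.2 and 9.25 CPM at 50 mg/kg, against 67, 60.3 and 55.6 CPM at 25 mg/kg (log2 fold change -1.25, SE 0.45). In all 3 genes replicate 3 of 50 mg/kg was the lowest library.

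Other endothelial genes overlapped between the doses. Cdh5, which encodes VE-cadherin, measured 83.3, 48 and 95 CPM at 50 mg/kg, against 64.3, 52.1 and 61 CPM at 25 mg/kg, and Pecam1 40.4, 22.2 and 23.5 CPM at 50 mg/kg, against 30.3, 26.6 and 34.1 CPM at 25 mg/kg. Stab2 and Lyve1, scavenger receptors of sinusoidal cells, were at log2 fold changes of 0.57 (SE 0.46) and 1.21 (SE 0.51), both with overlap. The summed level of the 20 markers was 939, 636 and 703 CPM at 50 mg/kg, against 1003, 947 and 981 CPM at 25 mg/kg, and 810.2, 989 and 926 CPM with NaCl. Leaving out 50 mg/kg replicate 1 raised the 7 lower genes to 14 (70.0%), when 16.1% of all genes were lower. Omission of 50 mg/kg replicate 2 left 7 lower (35%, against 11.6% of all genes) and put 3 higher (15%, against 11.1%). Without 25 mg/kg replicate 3, 9 were lower (45%, against 10.7%) and 2 higher (10%, against 9.66%).

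Vsig4, a complement receptor of Kupffer cells, measured 14.5, 15 and 15.3 CPM at 50 mg/kg, against 25.4, 25.8 and 24.4 CPM at 25 mg/kg, with its libraries close together within each dose. Its log2 fold change was -0.75 (SE 0.16), with an adjusted p of 0.646 in edgeR and 0.031 in DESeq2. Clec4f, a lectin specific to mouse Kupffer cells, measured 36.5, 54.6 and 78.5 CPM at 50 mg/kg, against 135, 81.2 and 102 CPM at 25 mg/kg (log2 fold change -0.91, SE 0.31), and C1qa and C1qc, subunits of complement C1q, stood lower at -0.51 and -0.51. For Vsig4 the NaCl libraries were at 15.5, 15.8 and 23.4 CPM, between the doses. Marco, a scavenger receptor, measured 178, 5.67 and 34.9 CPM at 50 mg/kg, against 53.8, 9.36 and 28.5 CPM at 25 mg/kg. Lyz2, lysozyme, measured 190.3, 49 and 108 CPM at 50 mg/kg, against 105, 46.5 and 64.7 CPM at 25 mg/kg. Both of these overlapped. The summed level of the 15 markers was 964, 416 and 674 CPM at 50 mg/kg, against 903, 621 and 748 CPM at 25 mg/kg, with no separation of the doses.

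**Figure D5:**
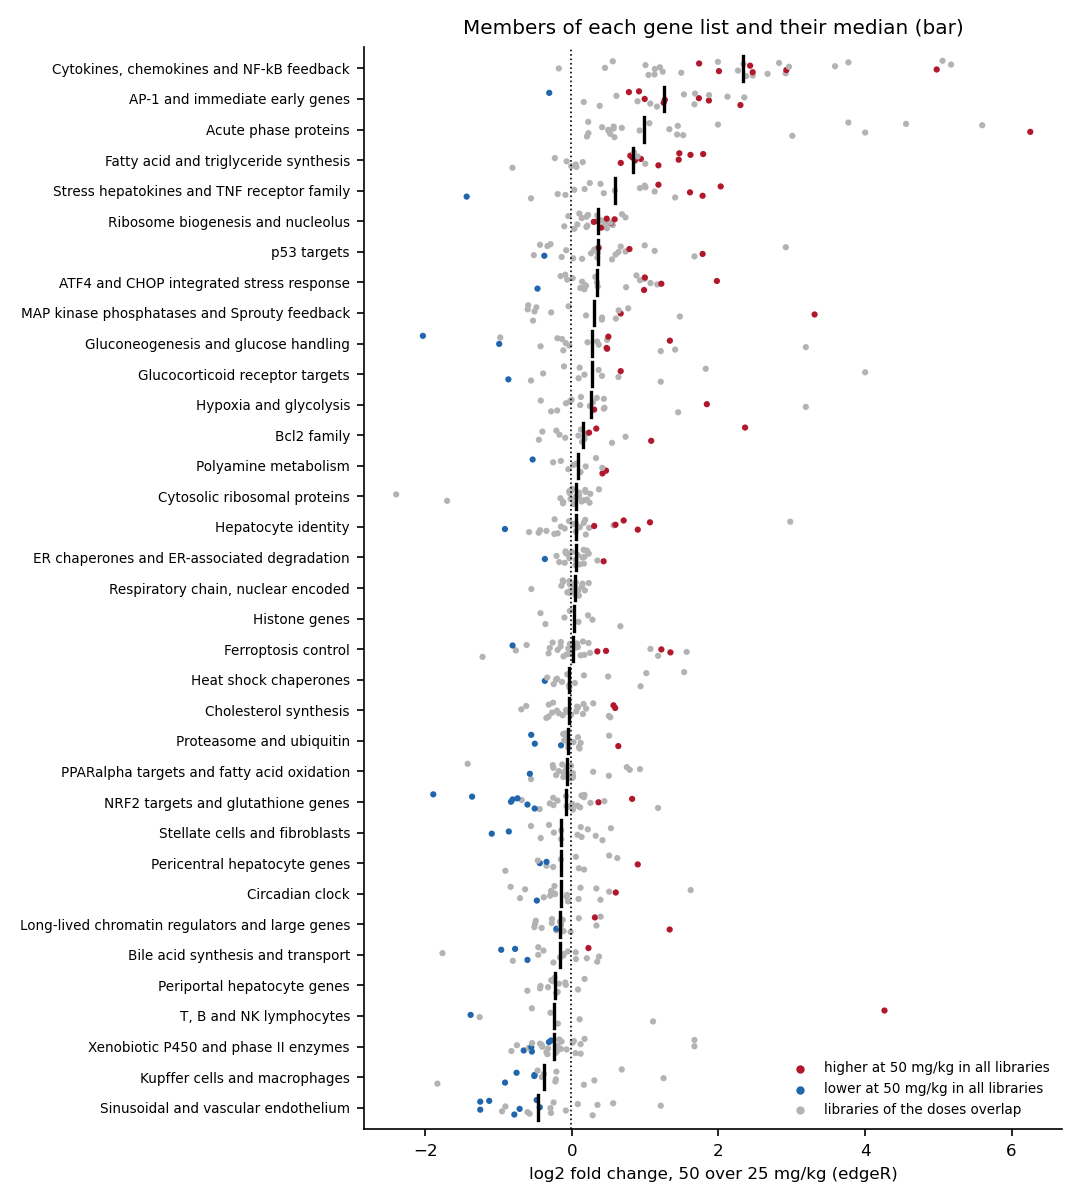
Points are the tested members of each list with at least 8 of them, at their log2 fold change of 50 over 25 mg/kg; red members stood higher and blue lower in every library, grey ones overlapped, the black bar is the median, and the dotted line the median of all genes (-0.01). The fatty acid list has 10 red points of 20 and no blue one, and the endothelial list 7 blue of 20 and no red one.

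Among the 12 genes of lowest p in each direction, several lie outside these lists. The 12 were taken from genes without overlap, so the separation of their libraries is no further result. Pnpla5, a lipid droplet lipase of the family of Pnpla3, measured 8.42, 7.73 and 3.17 CPM at 50 mg/kg, against 1.01, 0.593 and 0.699 CPM at 25 mg/kg (log2 fold change 3.05, SE 0.47, DESeq2 adjusted p 3.52e-06). Cish, a STAT5-induced inhibitor of cytokine signalling, measured 32.2, 47.1 and 114 CPM at 50 mg/kg, against 9.79, 10.2 and 12.5 CPM at 25 mg/kg (log2 fold change 2.57, SE 0.45, DESeq2 adjusted p 6.79e-06). Socs2, another STAT5 target, was picked after its values were seen and measured 9.74, 9.34 and 42.3 CPM at 50 mg/kg, against 2.42, 4.28 and 6.07 CPM at 25 mg/kg. For Cish and Socs2 the NaCl libraries, at 67.7, 38.6 and 34 CPM and 49.2, 30.2 and 25 CPM, also lay above 25 mg/kg. Wsb1, a substrate receptor of a ubiquitin ligase, measured 35.2, 46.8 and 50.1 CPM at 50 mg/kg, against 23.3, 19.1 and 23.5 CPM at 25 mg/kg, and Rims4 62.8, 53.5 and 70.6 CPM at 50 mg/kg, against 29, 31 and 35.2 CPM at 25 mg/kg, both without overlap. H2-Q1, a class Ib histocompatibility gene, measured 11.2, 16.2 and 1.82 CPM at 50 mg/kg, against 0.113, 0.264 and 0.484 CPM at 25 mg/kg, and near-identical copies make its count uncertain.

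On the lower side, Colec10, a liver collectin, measured 7.10, 8.63 and 8.71 CPM at 50 mg/kg, against 14.2, 21.5 and 27.3 CPM at 25 mg/kg (log2 fold change -1.37, SE 0.27, DESeq2 adjusted p 0.00746). Hpgd, which inactivates prostaglandins, measured 69.6, 82.3 and 54.7 CPM at 50 mg/kg, against 107, 134 and 134 CPM at 25 mg/kg (log2 fold change -0.86, SE 0.20), and Vipr1, a receptor for vasoactive intestinal peptide, 23.9, 37.7 and 26.7 CPM at 50 mg/kg, against 52.7, 64.6 and 54.5 CPM at 25 mg/kg (log2 fold change -0.96, SE 0.21). These genes were picked for low p without overlap, so their separation was set by that choice. Arl4d, a small GTPase, measured 73.1, 42.9 and 53 CPM at 50 mg/kg, against 98.5, 112 and 139 CPM at 25 mg/kg, with NaCl at 2.68, 10.05 and 8.42 CPM, so that it too was above control at both doses and lower at the higher one. Gas2, a cytoskeletal protein, was at -0.82 (SE 0.18) and Arvcf, a catenin, at -1.56 (SE 0.32). Adra2b, an adrenergic receptor, Ccr3, a chemokine receptor, and Tspan17, a tetraspanin, stood lower at log2 fold changes of -2.37, -1.73 and -1.66, all at low levels.

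Of 25 ribosome biogenesis genes, 6 stood higher (24%, against 5.38% of all genes) and 0 lower. Their median log2 fold change was 0.35. The list had 23 of 25 genes with a positive log2 fold change. The 6 became 13 (52.0%, against 12.2% of all genes) without 25 mg/kg replicate 1. Medians nearer to 0 were found for other processes of general upkeep: 0.04 for 24 nuclear-encoded respiratory chain genes, 0.06 for 25 cytosolic ribosomal proteins and -0.04 for 15 heat shock chaperones. In these 3 lists 1 gene was without overlap, a chaperone that stood lower (6.67% of its list, against 6.05% of all genes). The first 2 lists had 0% in either direction, against 5.38% higher and 6.05% lower of all genes. PPARalpha targets and fatty acid oxidation, the pathway opposed to synthesis, gave 0 higher and 1 lower of 24, with a median of -0.06. The lower share was 4.17%, against 6.05% of all genes. Dropping 25 mg/kg replicate 1 put 7 respiratory chain genes higher and 0 lower, and 7 ribosomal proteins higher and 2 lower, when 12.2% of all genes were higher and 12.1% lower. Dropping 50 mg/kg replicate 2 put 5 of the fatty acid oxidation genes lower (20.8%, against 11.6% of all genes). The difference in lipid genes was thus seen in the synthesis list, and a difference between the 2 lists was not tested.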

How the data were processed

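Livers of wild-type mice were sequenced as poly(A) RNA, per the labels' protocols. HISAT2 and the mouse build GRCm38 are named in the submitters' processing notes; no source used here gives the counter, the annotation or the use of strand, and overlapping or antisense genes may therefore share reads. The authors deposited whole-number read counts per gene, not normalized. Deposited FPKM values were not used here.

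Tests used edgeR 4.0.16 under R 4.3.3 (filterByExpr, TMM, glmQLFit, 4 residual degrees of freedom, no block). NaCl levels were put on the same scale and entered only the fit of all 9 libraries. CPM are TMM-scaled; log2 CPM used a prior count of 2. Alternatives were DESeq2 1.42.0, limma-voom (limma 3.58.1), other scalings and filters, a fold limit, a fit of all 9 libraries, a block on replicate number and omission of 1 library at a time. The procedure was tested on simulated data.

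The members and lists were chosen with earlier results of these data known. Genes named were those past the threshold or, failing that, the 12 of lowest p per direction without overlap and with a mean of at least 1 CPM, the 2 of lowest p per list, and 13 fixed genes; other list members and genes said so were named after their values were seen. Some lists and genes of the rule are not printed.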

Additional observations from a re-analysis of the deposited data

How the results depend on the processing

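The count of genes past an adjusted p of 0.05 was 0 in edgeR (882 at an unadjusted p under 0.05) and stayed 0 with DESeq2 size factors, upper quartile or library-total scaling, with a looser and a stricter filter, with a fold limit and in limma-voom (782 unadjusted). DESeq2's Wald test gave 84 genes, 61 higher and 23 lower (989 unadjusted); the cause was not tested. A fit of all 9 libraries gave 1, Acacb, which was higher (adjusted p 0.0213). Leaving out 1 library gave 0 to 2 genes, 0 to 2 higher and 0 to 2 lower: Rps2 and Camk2b lower without 25 mg/kg replicate 1, H2-Q7 and H2-Q6 higher without 25 mg/kg replicate 3, Eno1b higher without 50 mg/kg replicate 2 and H2-Q1 higher without 50 mg/kg replicate 3. The unadjusted count then ranged from 453 without 25 mg/kg replicate 2 to 1468 without 50 mg/kg replicate 1. Deviations of same-numbered libraries from their dose means correlated at -0.08, -0.04 and -0.13, and those of other pairs at -0.126 to 0.183. With 3 libraries a dose, this cannot tell whether the numbers mark a shared batch or day. With a replicate block 0 genes passed (743 unadjusted).

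Over 15 alternatives, 1569 of 1635 log2 fold changes of named genes kept their direction and side of the threshold, 38 newly passed it and 28 turned. Values that turned were, with upper quartile Keap1 -0.0064; with library totals Keap1 -0.061 and Mlxipl -0.014 and Txnrd1 -0.011. When single libraries were left out, the log2 fold change spanned -0.099 to 0.20 for Acsl4, -0.36 to 0.089 for Elovl5, -0.18 to 0.15 for Fads1, -0.14 to 0.057 for Fads2, -0.35 to 1.62 for Hmox1, -0.048 to 0.17 for Keap1, -0.57 to 1.93 for Marco, -0.035 to 0.22 for Mlxipl, -0.28 to 0.12 for Nfe2l2, -0.81 to 0.63 for Pck1, -0.40 to 0.074 for Pecam1, -0.23 to 0.39 for Srebf1, -0.38 to 0.17 for Trib3, -0.13 to 0.18 for Txnrd1 (causes not tested). With library totals the median of all genes was -0.09, against -0.01 with TMM. The median SE of a log2 fold change was 0.27, the limit set by 3 libraries a dose. Counts of list members without overlap under other scalings and without single libraries were chosen after the data were seen.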

Other observations

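Several genes of the histocompatibility region on chromosome 17 split the libraries in a way that the dose labels do not give, as read from their values after the data were seen. H2-Q7 (ENSMUSG00000060550, GRCm38 chromosome 17, 35439155 to 35443773) was at 65.9, 67.9 and 82.3 CPM at 50 mg/kg, 1.29, 0.395 and 49 CPM at 25 mg/kg and 136, 22.8 and 44.3 CPM with NaCl. H2-Q6, its neighbour, was at 93.7, 113 and 198 CPM at 50 mg/kg, 2.98, 2.04 and 67.7 CPM at 25 mg/kg and 294, 30.5 and 69.7 CPM with NaCl. Both were thus near 0 in replicates 1 and 2 of 25 mg/kg and not in the other 7 libraries. H2-K1 (ENSMUSG00000061232, GRCm38 chromosome 17, 33996017 to 34000347), a classical class I gene, was at 345, 326 and 635 CPM at 50 mg/kg, 351, 327 and 1312 CPM at 25 mg/kg and 1083, 730.2 and 384 CPM with NaCl. The class II gene H2-Ab1 was at 4.09, 4.25 and 14.6 CPM at 50 mg/kg, 4.67, 11.5 and 98.6 CPM at 25 mg/kg and 28.2, 27.8 and 2.50 CPM with NaCl, and the ribosomal protein gene Rps18 (ENSMUSG00000008668, GRCm38 chromosome 17, 33951999 to 33956001), which lies next to this region, at 27.2, 34.3 and 29.2 CPM at 50 mg/kg, 30.9, 38.2 and 226 CPM at 25 mg/kg and 195, 256 and 20.1 CPM with NaCl. For Rps18, replicate 3 of 25 mg/kg and replicates 1 and 2 of NaCl were high and the other 6 low. Rps2, on the same chromosome, was at 103, 129.8 and 139 CPM at 50 mg/kg, 123, 912 and 918 CPM at 25 mg/kg and 94.7, 102 and 81.5 CPM with NaCl, high in replicates 2 and 3 of 25 mg/kg. Some of these genes have near-identical copies or processed pseudogenes, which makes those counts uncertain. No source used here gives a litter or substrain per library.

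Cd3e, a subunit of the T cell receptor complex, was at 8.30, 32 and 3.11 CPM at 50 mg/kg, 0.281, 0.527 and 1.40 CPM at 25 mg/kg and 0.201, 0.202 and 0.351 CPM with NaCl, whereas Cd3g, another subunit, was at 0.601, 0.258 and 0.473 CPM at 50 mg/kg, 0.338, 1.12 and 1.18 CPM at 25 mg/kg and 0.603, 0.252 and 0.301 CPM with NaCl and too low to test. Camk2b was at 0.0601, 0.0644 and 0.135 CPM at 50 mg/kg, 0, 23.8 and 11.6 CPM at 25 mg/kg and 0.134, 13.5 and 15.6 CPM with NaCl. Gene span, from start to end as deposited, went with the direction of the difference: the median log2 fold change was 0.06 in the 3048 tested genes of shortest span (up to 10.4 kb) and -0.08 in the 3047 of longest span (from 54.3 kb). Among the shortest 7.35% of genes stood higher and 4.30% lower at 50 mg/kg, against 3.94% and 7.25% among the longest. The part of span in the list results was not tested.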
